A study of Mus musculus with 2 samples.

Results

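Neurogenic radial glia were taken here as cells of the embryonic mouse cortex that carried radial glial transcripts together with several molecules of Neurog2 RNA and little or no Eomes. The cells were selected on their measured values, that is on unique molecular identifier (UMI) counts, where 1 UMI stands for 1 captured RNA molecule. Cells entered with 1000 or more genes found and no more than 10% of UMIs from mitochondrial genes, and a cell was a member if it held at least 2 UMIs of Slc1a3, at least 1 of Sox9, at least 3 of Neurog2 and at most 2 of Eomes. A member also held at most 2 UMIs of Neurod2 plus Neurod6 and of Dlx1 plus Dlx2, at most 1 of Lmx1a, and at most 2 of Rspo2 and of Col3a1, which kept neurons, interneurons, cortical hem and meningeal cells out. The gates held 125 of 3182 retained cells. The series consists of 2 single-cell libraries of wild-type (WT) dorsal telencephalon at E14.5, dissociated with papain and sequenced with 10x 3' v3.1 chemistry. The study used such data to ask which ligands and receptors could link migrating somatostatin interneurons to radial glia and intermediate progenitors. The titles of both libraries carry the word EomesDot, which the labels do not define, and number the libraries 2 and 4, called replicate 2 and replicate 4 here. The study describes C57BL/6J mice, and the labels do not say how many embryos a library holds.

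Radial glia are the stem cells that line the ventricle of the developing cortex. Neurog2 is a proneural transcription factor that switches on genes of neuronal differentiation in dorsal progenitors, among them the Notch ligand Dll1, and Eomes (TBR2) marks the intermediate progenitors that leave the ventricular surface. Notch signals received from neighbours keep radial glia undifferentiated through Hes1 and Hes5, which repress proneural genes, and Neurog2 RNA is known to oscillate in radial glia before a cell commits.

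Replicate 2 held 51 members among 1211 retained cells, which is 4.21% with a 95% exact binomial interval of 3.15 to 5.50%. Replicate 4 held 74 among 1971, or 3.75% with an interval of 2.96 to 4.69%, and the mean was 3.98% ± 0.323 (SD, n = 2 libraries). Intervals cover counting error only. Of all cells that passed the radial glia gate at any Neurog2 count, members were 25.4% in replicate 2 and 24.8% in replicate 4. The share depends on depth, since the gates count molecules: with every cell thinned to 10000 UMIs before gating, 15 of 1062 cells (1.41%) and 22 of 1619 cells (1.36%) were left. The members held a median of 32221 and 27266.5 UMIs and 6448 and 6048 genes per cell in replicates 2 and 4.

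Most cells with 3 or more Neurog2 UMIs were not members. Such cells numbered 280 in replicate 2 and 433 in replicate 4, of which 194 and 300 had at least 3 Eomes UMIs, 186 and 273 had at least 3 UMIs of Neurod2 plus Neurod6, and 183 and 305 missed the Slc1a3 or Sox9 gate. A cell could miss several gates, and Eomes alone kept 18 and 25 cells out. None of the 35 and 49 cells with at least 10 UMIs of Dlx1 plus Dlx2, interneurons that should lack Neurog2, held a Neurog2 UMI. A floor of 3 counts sets the shares these counts of 0 allow at up to 8.57% and 6.12%, and the upper ends of the 95% exact binomial intervals were 10.0% and 7.25%, at median depths of 26263 and 20153 UMIs. Over all retained cells, 43.9% and 37.8% held at least 1 Neurog2 UMI, at medians of 30872 and 23007 UMIs. Scrublet called 9 doublets (0.743%) and 44 doublets (2.23%), none of them a member, and no barcode of a member occurred in the other library.

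The gate set the levels of Neurog2, Eomes, Slc1a3 and Sox9, which are given without a test. Neurog2 stood at 303 and 250.4 CPM (the UMIs of a gene scaled to the same total in every class) in the members of replicates 2 and 4. The median member held 6 and 5 Neurog2 UMIs and the highest 76 and 31. Eomes was at 0 UMIs in 44 of 51 and 59 of 74 members. Slc1a3, the glutamate transporter GLAST, stood at 333 and 282 CPM and Sox9, a transcription factor of neural stem cells, at 221 and 236 CPM. Radial glial genes that the gate did not use were present as well. At 10000 UMIs per cell, Pax6, the dorsal progenitor factor, was found in 87.8 and 85.3% of the members, and Fabp7, the brain lipid-binding protein, in 93.9 and 94.1%. Both were also common in the Eomes-positive progenitors defined below, Pax6 in 77.1 and 60.8% and Fabp7 in 68.6 and 82.4%. Hes1 was found in 40.8 and 45.6% of the members and in 8.57 and 17.6% of those progenitors.

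Members were compared with 2 other classes cut by the same gates. Neurog2-negative radial glia passed the radial glia gate with 0 Neurog2 UMIs (103 and 160 cells in replicates 2 and 4). Eomes-positive intermediate progenitors had at least 3 Eomes UMIs and passed the gates against neurons, interneurons, hem and meninges, whatever their Slc1a3, Sox9 and Neurog2 (36 and 57 cells). UMIs were summed per library and class. The sums, together with those of 47 and 64 Neurog2-low radial glia with 1 or 2 Neurog2 UMIs, entered 1 edgeR quasi-likelihood fit, with p-values adjusted over all genes tested and the 11 gate genes left out of the tests. Median depth in negative cells was 33654 and 26819 UMIs. The labels do not say whether the libraries came from separate animals. The p-values measure only the spread between these 2 libraries, which may be technical in part. The libraries differed in sex-linked RNA, with Xist at 0.102 and 835 CPM and the Y-linked Ddx3y at 38.9 and 0.169 CPM in replicates 2 and 4. Replicate 2 thus held male RNA and replicate 4 female RNA, so they did not come from the same single embryo. Sex and library are the same split here and cannot be told apart. The Neurog2-low sum of replicate 4 stood apart with 12510.4 CPM of 7 erythroid genes, against 65.9 to 223 CPM in the other sums, and the fits of the compared classes alone leave that class out.

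Against Neurog2-negative radial glia, members had more RNA of the early neurogenic genes Gadd45g, Dll1, Hes6, Btg2 and Insm1 and less RNA of genes of DNA replication, with 21 of 30 S phase genes lower and none higher. None of the G2 and mitotic genes or of the Notch receptors and effectors passed the test. Of 11390 genes tested, 154 were called at an adjusted p under 0.05, which is 1.35% of all genes: 37 (0.325%) were higher in the members and 117 (1.03%) lower. The median log2 fold change over all genes was 0.01, and 1542 genes had an unadjusted p under 0.05. With the library as a replicate block, 259 genes were called, the 154 among them. Fitting the 2 compared classes alone gave 280 calls, of which 151 were among the 154.

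**Figure D1:**
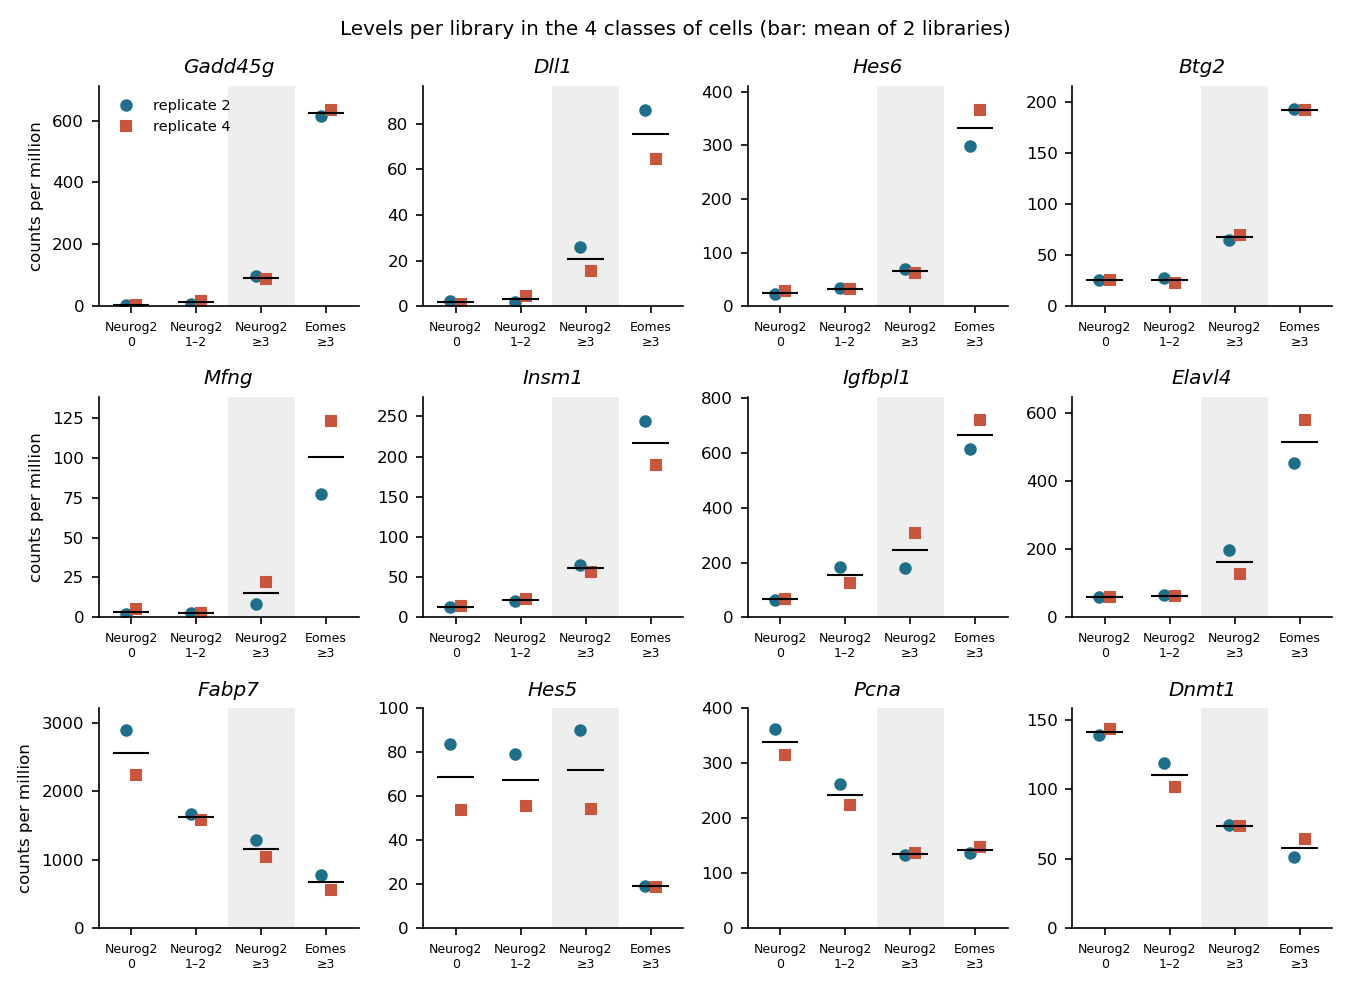
Levels of 12 genes in CPM (vertical axes, linear, from 0) in Neurog2-negative radial glia (Neurog2 0), Neurog2-low radial glia (1 to 2), neurogenic radial glia (at least 3, shaded) and Eomes-positive intermediate progenitors (Eomes at least 3). Each point is 1 library and each bar the mean of 2. Gadd45g, Dll1 and Insm1 lie above both other radial glial classes in each library, and Pcna and Dnmt1 lie below them.

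Of 14 proneural factors and NEUROG2-linked genes, 13 were tested, 4 were called higher in the members and none lower, and the list includes genes chosen for their link to Neurog2, by which the cells were cut. The median log2 fold change of the 13 was 1.36, or 0.82 with the 2 genes that were at 0 in 1 class set to their bound. Gadd45g (chromosome 13, 51846675 to 51848475, GRCm38.p6), a growth arrest protein of neuronal precursors, stood at 96.8 and 89.0 CPM in the members of replicates 2 and 4 and at 3.39 and 4.14 CPM in negative cells. The difference was 4.57 ± 0.27 on the log2 scale (SE; edgeR adjusted p = 0.000478), and the classes did not overlap. Dll1 (chromosome 17, 15367354 to 15376932) stood at 26.0 and 15.6 CPM against 2.55 and 0.920 CPM, a log2 fold change of 3.57 ± 0.49 (adjusted p = 0.0145). Its 2 member values lay above both values of the negative cells.

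Hes6, which counteracts Hes1, stood at 70.2 and 62.8 CPM in the members and at 22.1 and 28.5 CPM in negative cells, a log2 fold change of 1.36 ± 0.17 (edgeR adjusted p = 0.0133). Btg2, an antiproliferative factor known from neuron-producing divisions, stood at 65.1 and 70.2 CPM against 26.0 and 26.0 CPM (1.36 ± 0.14, adjusted p = 0.00630). The fold of both genes was smaller than that of Gadd45g, and neither overlapped between the classes. Mfng, an enzyme that modifies Notch receptors, had a log2 fold change of 2.02 ± 0.54 that did not pass (adjusted p = 0.127) and did with the replicate block (adjusted p = 0.0218). Neurod1 and Neurod4, factors of later neurogenesis, had no UMI in the members of either library.

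Among 12 intermediate progenitor genes, 3 were called higher in the members and none lower, with a median log2 fold change of 0.87. Insm1 (chromosome 2, 146221997 to 146225020), a zinc finger factor that promotes basal progenitors, stood at 65.6 and 56.9 CPM against 12.4 and 13.8 CPM (2.19 ± 0.18, edgeR adjusted p = 0.00340). Igfbpl1, a secreted protein, stood at 182 and 309 CPM against 62.5 and 67.8 CPM (1.89 ± 0.25, adjusted p = 0.0145). Elavl4, an RNA-binding protein of the neuronal Hu family, stood at 196 and 128 CPM against 60.8 and 58.4 CPM (1.42 ± 0.21, adjusted p = 0.0156). In each case both libraries of the members lay above both of the negative cells. None of 18 tested excitatory neuron genes was called by edgeR or DESeq2 without the replicate block and 1, Sox11, was called higher with it (adjusted p = 0.0441). Of the 18, 6 had an unadjusted edgeR p under 0.05, and the median log2 fold change was 0.11. The list is not particular to excitatory cells. It summed to 1980 and 2141 CPM in the members and to 11000.5 and 9244 CPM in cells with at least 10 UMIs of Dlx1 plus Dlx2.

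The 12 called genes with the largest increases also held Srrm4, a regulator of neural microexon splicing, at 46.4 and 50.9 CPM in the members and 6.79 and 13.8 CPM in negative cells (2.19 ± 0.30 log2). Prox1, a homeobox factor of neural differentiation, was higher by 1.67 ± 0.28 and Rcor2, a partner of a histone demethylase, by 1.45 ± 0.18. Stat3, the cytokine-activated transcription factor, was higher by 1.41 ± 0.25 and Dlgap2, a synaptic scaffold protein, by 1.51 ± 0.25. Called higher against both other classes were 3 genes, Mybpc1, Mycn and Ptms, and both comparisons share the member sums. Mycn, a driver of progenitor growth, stood at 65.1 and 74.8 CPM in the members, 40.2 and 43.7 CPM in negative cells and 36.9 and 35.5 CPM in Eomes-positive progenitors, with log2 fold changes of 0.72 ± 0.14 and 0.90 ± 0.16. Mybpc1, a myosin-binding protein, stood at 28.9 and 26.1 CPM in the members, at 7.35 and 6.90 CPM in negative cells and at 5.54 and 3.48 CPM in Eomes-positive progenitors. In cells with at most 1 UMI of Mki67 plus Top2a, the log2 fold changes against negative cells were -0.51 ± 0.82 for Mybpc1 and -0.04 ± 0.27 for Mycn. The sign of both turned there, but neither lay further from 0 than its SE.

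None of 16 tested Notch receptors and effectors was called against negative cells by edgeR or DESeq2, 3 had an unadjusted edgeR p under 0.05, and the median log2 fold change was -0.15. Hes5, a target of Notch signalling, stood at 90.0 and 54.1 CPM in the members and at 83.7 and 53.6 CPM in negative cells (0.05 ± 0.28, edgeR adjusted p = 0.970), and the libraries differed by more than the classes. Hes1 stood at 90.5 and 67.0 CPM against 113 and 90.8 CPM (-0.39 ± 0.24, adjusted p = 0.535). The receptor Notch1 had a log2 fold change of -0.20 ± 0.11. Summed over the list, Notch genes stood at 2104 and 1961 CPM in the members and at 2251 and 2005 CPM in negative cells. At 10000 UMIs per cell, Dll1 was found in 16.3 and 11.8% of the members and Hes5 in 32.7 and 29.4%, and both in 1 cell of each library (2.04 and 1.47%). Without thinning, 23.5 and 17.6% of the members held at least 1 UMI of both, so the joint share depended on depth.

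Of 20 radial glia genes, 3 were called lower in the members and none higher, with a median log2 fold change of -0.32. Fabp7 stood at 1292 and 1037 CPM in the members and at 2889.7 and 2239.6 CPM in negative cells (-1.16 ± 0.18, edgeR adjusted p = 0.0194), without overlap. Ptprz1, a receptor phosphatase, had a log2 fold change of -0.88 ± 0.15 (adjusted p = 0.0273) and Tnc, the matrix protein tenascin C, of -1.29 ± 0.24 (adjusted p = 0.0444). With the replicate block, 5 of the 20 were called lower. Pax6, Sox2, Nes and Vim did not pass, at log2 fold changes of 0.17 ± 0.15, -0.29 ± 0.11, -0.35 ± 0.10 and 0.15 ± 0.08. Among 15 pallial patterning factors, Emx1, a marker of the dorsal cortex, was called higher (90.5 and 125 against 60.5 and 60.5 CPM, 0.82 ± 0.16, adjusted p = 0.0458).

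All 30 S phase genes had a negative log2 fold change, with a median of -1.17, and 21 were called, or 26 with the replicate block. Summed, they stood at 1769.6 and 1831 CPM in the members and at 3685 and 3904 CPM in negative cells. Pcna, the sliding clamp of DNA polymerase, stood at 134 and 137 CPM against 363 and 315 CPM (-1.34 ± 0.12, edgeR adjusted p = 0.00440). Rrm2, a subunit of ribonucleotide reductase, had a log2 fold change of -1.75 ± 0.24, Mcm5 of the replicative helicase of -1.29 ± 0.18 and Slbp, which binds histone mRNA, of -1.19 ± 0.13. The 12 called genes with the largest decreases held the replication genes E2f8, Cdc6, Exo1 and Dscc1, the linker histone Hist1h1a, and Rgs6, Tcf19, Gucy1b1, Adamts18, Slfn9, Fry and Eepd1. Rgs6, a regulator of G protein signalling, stood at 0 and 0.917 CPM in the members and at 30.5 and 9.89 CPM in negative cells.

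None of 38 genes of G2 and M phase was called by edgeR or DESeq2, 7 had an unadjusted edgeR p under 0.05, and the median log2 fold change was 0.06. Their summed level was 7125 and 7563 CPM in the members and 6859 and 7149.6 CPM in negative cells. Mki67, the proliferation antigen, stood at 325 and 248 CPM against 322 and 254 CPM, and its direction turned when cells were restricted to Eomes 0 or to at least 15000 UMIs. None of 14 G1 regulators was called by either tool, and 4 had an unadjusted edgeR p under 0.05. At 10000 UMIs per cell, cells with at least 2 UMIs of Mki67 plus Top2a were 53.1 and 47.1% of the members, 73.1 and 67.8% of negative cells and 25.7 and 15.7% of Eomes-positive progenitors. Without thinning the shares were 64.7 and 55.4%, 87.4 and 80% and 33.3 and 17.5%. Thinning left out 2 and 6 members, 10 and 17 negative cells and 1 and 6 Eomes-positive progenitors as too shallow.

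**Figure D2:**
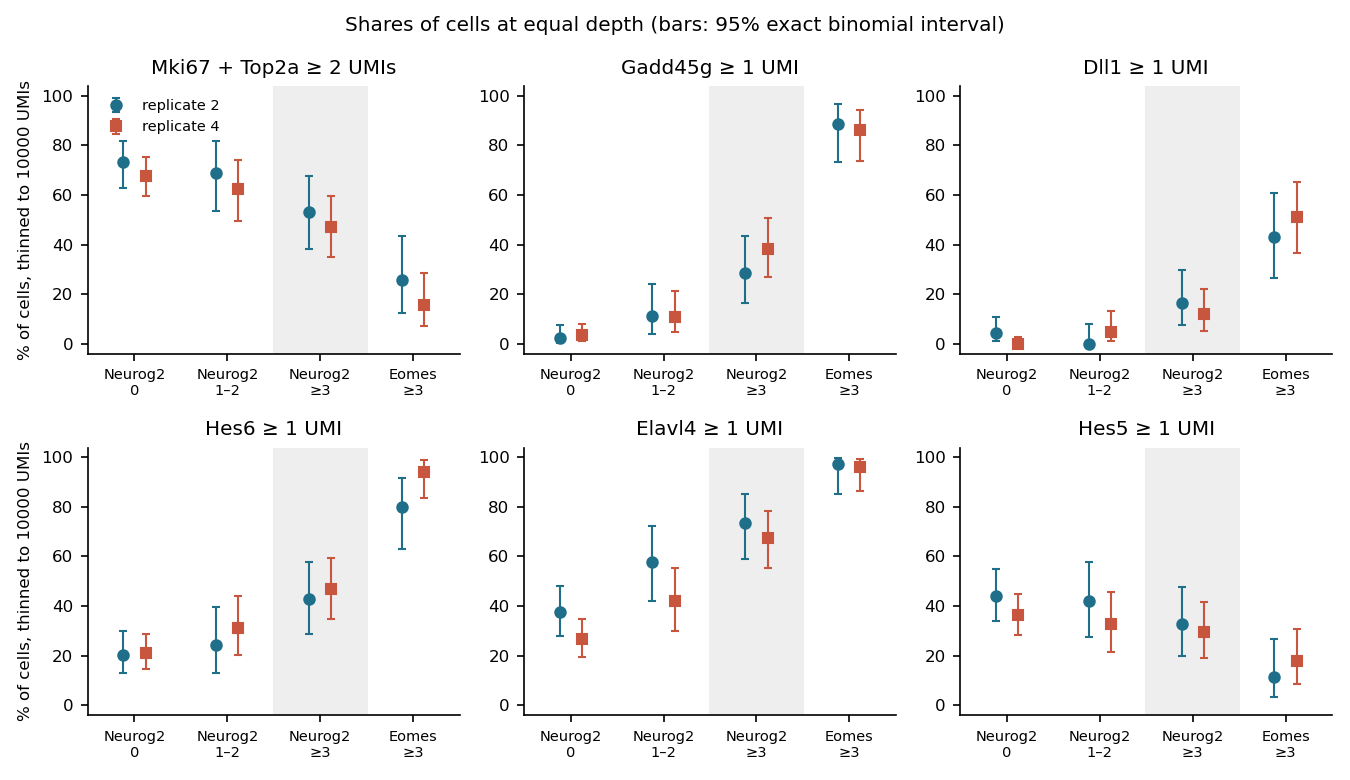
Percent of cells (vertical axes) with the named number of UMIs after each cell was thinned to 10000 UMIs, by class and library. Points are single libraries and bars 95% exact binomial intervals, which cover counting error only. The shares of the members (shaded) lie between those of negative cells and Eomes-positive progenitors in both libraries for all 6 panels.

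Cells with at most 1 UMI of Mki67 plus Top2a were also compared on their own, 18 and 33 members against 13 and 32 negative cells. Gadd45g was then the only gene called of 8598 tested (4.04 ± 0.41, edgeR adjusted p = 0.00682), and 612 genes had an unadjusted p under 0.05. Log2 fold changes were 3.43 ± 0.66 for Dll1 and 2.87 ± 0.38 for Insm1, whose adjusted p was 0.0507. The median was 1.06 over 9 proneural genes, -0.87 over 27 S phase genes, all of them negative, and -0.68 over 14 genes of G2 and M phase.

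Dnmt1 (chromosome 9, 20907206 to 20959888), the maintenance DNA methyltransferase, was the 1 gene called among 9 tested DNA methylation genes. It stood at 74.7 and 73.4 CPM in the members and at 139 and 144 CPM in negative cells (-0.96 ± 0.13, edgeR adjusted p = 0.0145), and at 51.7 and 64.0 CPM in Eomes-positive progenitors. Uhrf1, which brings DNMT1 to newly replicated DNA and stands in the S phase list, had a log2 fold change of -1.27 ± 0.17. Members with at most 1 UMI of Mki67 plus Top2a held Dnmt1 at 43.2 and 39.8 CPM and the other members at 86.7 and 89.4 CPM, a description without a test.

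Promoters of called genes are printed for 2 short motifs: the E-box CAGATG (in reverse complement CATCTG), a form that proneural factors bind, and TTTCGCGC and TTTGGCGC (in reverse complement GCGCGAAA and GCGCCAAA), forms bound by E2F factors, which control replication genes. The letters were chosen after the called genes were known. Both strands were searched from 250 bases before to 50 after each RefSeq gene start (GRCm38.p6, the patched mm10 assembly). The E-box stood in the windows of 8 of 26 genes called higher that have one (30.8%), of 13 of 90 called lower (14.4%), of 1157 of 8922 tested genes (13.0%) and of 19.2% of all 27025 genes in the table. The E2F letters stood in 1 of 26 called higher (3.85%), in 9 of 90 called lower (10%), in 5 of 16 S phase genes called lower, in 171 of 8922 tested genes (1.92%) and in 0.929% of the table. The E-box and E2F letters cannot overlap by more than 1 base. A match is a description, not a binding site, and the windows of Dll1, Gadd45g, Hes6 and Btg2 do not hold the E-box letters.

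E-box stretches of called genes, all on the minus strand and before a RefSeq start, are given 5′ to 3′ with the E-box in capitals, from chr5:116591945-116592000 (Srrm4), chr1:190170976-190171031 (Prox1), chr4:110287536-110287591 (Elavl4) and chr10:88605179-88605234 (Mybpc1).
Srrm4: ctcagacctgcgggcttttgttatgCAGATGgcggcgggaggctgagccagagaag
Prox1: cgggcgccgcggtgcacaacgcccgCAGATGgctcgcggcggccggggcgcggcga
Elavl4: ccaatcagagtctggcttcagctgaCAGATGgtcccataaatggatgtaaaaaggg
Mybpc1: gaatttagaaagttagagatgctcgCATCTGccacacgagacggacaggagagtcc

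Stretches of Dnmt1 and of called S phase genes with the E2F letters in capitals come from chr1:128359783-128359840 (Mcm6, minus strand), chr8:75109331-75109388 (Mcm5, plus strand), chr9:20952810-20952867 (Dnmt1, minus strand), chr17:56304103-56304160 (Uhrf1, plus strand) and chrX:93632261-93632318 (Pola1, minus strand). The stretches of Mcm6 and Mcm5 each hold 2 matches that overlap, on opposite strands, and the first is in capitals.
Mcm6: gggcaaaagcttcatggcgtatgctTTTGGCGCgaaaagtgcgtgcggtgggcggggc
Mcm5: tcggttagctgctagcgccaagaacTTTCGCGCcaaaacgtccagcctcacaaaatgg
Dnmt1: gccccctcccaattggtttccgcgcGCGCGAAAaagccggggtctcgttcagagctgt
Uhrf1: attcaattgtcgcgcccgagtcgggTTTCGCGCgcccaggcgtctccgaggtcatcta
Pola1: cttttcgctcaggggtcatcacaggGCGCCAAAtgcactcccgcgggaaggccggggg

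Against Eomes-positive intermediate progenitors, 13 of 13 proneural and 10 of 12 intermediate progenitor genes were lower in the members, and 36 of 38 genes of G2 and M phase, 10 of 16 Notch genes and 10 of 20 radial glia genes were higher. Of the same 11390 genes, 966 (8.48%) were called, 479 (4.21%) higher in the members and 487 (4.28%) lower. Fitting the 2 compared classes alone gave 688 calls, of which 661 were among the 966. All 13 tested proneural and NEUROG2-linked genes were lower, with a median log2 fold change of -2.74. The other class was cut on Eomes and not on Neurog2, and only the members had to pass the Slc1a3 and Sox9 gates. Genes that go with Eomes, or with Slc1a3 and Sox9, could differ through this cut alone. The intermediate progenitor and radial glia counts are thus not independent of the gates. Neurog2, not tested as a gate gene, stood at 669 and 705 CPM there and at 303 and 250 CPM in the members of replicates 2 and 4. Gadd45g stood at 615 and 634 CPM in Eomes-positive progenitors (-2.80 ± 0.20 log2 for the members against them), Dll1 at 85.9 and 64.7 CPM (-1.91 ± 0.36) and Hes6 at 298 and 367 CPM (-2.38 ± 0.16). Of 12 intermediate progenitor genes 10 were lower (median -1.75). Of 18 tested genes of the excitatory neuron list, which is not particular to excitatory cells, 12 were lower (median -2.60). Gadd45g and Dll1 thus had intermediate levels in the members, above negative cells and below Eomes-positive progenitors in both libraries.

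Several genes of Eomes-positive progenitors had no UMI in the members of either library, and only bounds against a floor of 3 counts per library can be given. Slc17a6, the vesicular glutamate transporter VGLUT2, was at least 23.4- and 31.8-fold lower in the members of replicates 2 and 4. Neurod1 was at least 15.2- and 14.7-fold lower, Ebf2, a factor of early neurons, at least 25.6- and 18.2-fold, and Thrb, a thyroid hormone receptor, at least 30.5- and 23.8-fold. Clvs1, Mgat4c and Scn3a were at 0 in the members too. Rbfox3 (NeuN), a marker of neurons, stood at 1.13 and 9.63 CPM in the members and at 239 and 379 CPM in Eomes-positive progenitors, and Ebf1, Myt1l, Nhlh1 and St18 completed the 12 called genes with the largest decreases.

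Of 38 genes of G2 and M phase, 36 were higher in the members than in Eomes-positive progenitors, with a median log2 fold change of 1.87. Hmmr, a spindle protein, stood at 105 and 106 CPM against 16.6 and 17.4 CPM (2.58 ± 0.17, edgeR adjusted p = 0.000222). None of 30 S phase genes was called by edgeR or DESeq2, 5 had an unadjusted edgeR p under 0.05, and their median was -0.01. Cdkn1c, a cell cycle inhibitor, was lower, at 0 and 11.9 CPM against 130.2 and 98.1 CPM (-4.19 ± 0.81, adjusted p = 0.0137). With low Mki67 and Top2a cells only, 191 genes were called, 62 higher and 129 lower.

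Of 16 Notch genes, 10 were higher in the members than in Eomes-positive progenitors, with a median log2 fold change of 0.84. Hes5 stood at 19.4 and 18.8 CPM in Eomes-positive progenitors (1.85 ± 0.36), Hes1 at 19.4 and 28.5 CPM (1.63 ± 0.30) and Hey1, another Notch effector, differed by 2.91 ± 0.44. Of 20 radial glia genes, 10 were higher and none lower (median 0.70), with Ttyh1 at 1.57 ± 0.15 and Sox2, the neural stem cell factor, at 0.72 ± 0.12 log2. Tagln2, an actin-binding protein, had the largest increase among the genes named by the rule, at 65.1 and 62.4 CPM against 0.923 and 3.48 CPM (4.66 ± 0.49), and negative cells held 70.1 and 103 CPM. The basement membrane genes Col4a6 (2.72 ± 0.38) and Lama1 (2.52 ± 0.47), the metalloprotease Adamts9 (3.70 ± 0.58) and Id3, an inhibitor of proneural factors (3.06 ± 0.69), followed among the largest increases, which also took in Lrrtm4, B3gat2, Rgs7bp and Pawr.

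**Figure D3:**
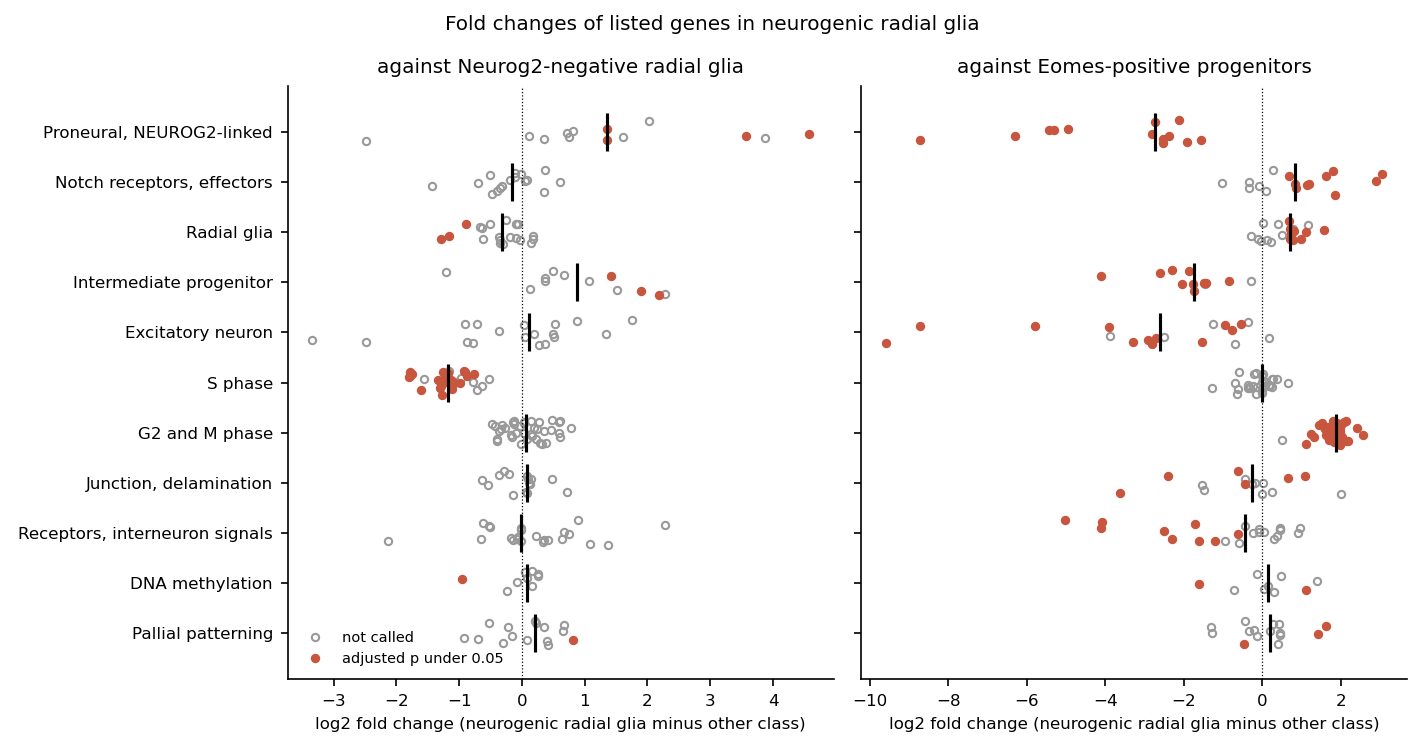
Log2 fold change (horizontal axes) of the tested genes of 11 lists in the members against Neurog2-negative radial glia (left) and against Eomes-positive intermediate progenitors (right). Each circle is a gene, filled where the edgeR adjusted p was under 0.05, and each bar the median of its list. The 30 S phase genes lie below 0 on the left and the 38 genes of G2 and M phase above 0 on the right, and values of genes at 0 in 1 class depend on the prior count of the fit.

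Receptors for signals that interneurons can send were listed because the study asks about that exchange. None of 23 tested receptors was called between members and negative cells by edgeR, 7 had an unadjusted p under 0.05, and DESeq2 called 1, Ephb1, higher. The median log2 fold change was -0.01. Epha4, an ephrin receptor, stood at 659 and 638 CPM in the members, 629.9 and 657 CPM in negative cells and 610.3 and 597 CPM in Eomes-positive progenitors (-0.01 ± 0.09 and 0.05 ± 0.09 log2). The direction of Epha4 against negative cells turned under several other settings. Nlgn1, a neuroligin that binds neurexins, stood at 1223 and 1144 CPM against 1221 and 1130.0 CPM in negative cells (-0.01 ± 0.13) and against 1639.9 and 1858 CPM in Eomes-positive progenitors (-0.62 ± 0.13, edgeR adjusted p = 0.0228). The somatostatin receptor Sstr2 stood at 3.40 and 0.917 CPM in the members and 30.5 and 39.6 CPM in Eomes-positive progenitors (-4.11 ± 0.67, adjusted p = 0.00685). In all, 9 of 23 receptors were lower in the members than in Eomes-positive progenitors and none higher. Nrp2, a semaphorin receptor, and the Slit receptors Robo1 and Robo2 were among the 9.

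Of 15 tested junction and delamination genes, none was called against negative cells by edgeR without the replicate block or by DESeq2, and 3 had an unadjusted edgeR p under 0.05. Plekha7, a protein of adherens junctions, had a log2 fold change of -0.64 ± 0.13 (edgeR adjusted p = 0.0575), was called lower with the block (adjusted p = 0.0435) and passed the threshold under 5 of 11 other settings, the block among them. Against Eomes-positive progenitors, Prdm16 (0.65 ± 0.15) and Plekha7 (1.10 ± 0.15) were higher in the members. Scrt2 (-3.62 ± 0.90), a repressor linked to delamination, Numbl, Ctnnb1 and Zeb1 were lower. With the compared classes alone, the calls of Prdm16 (adjusted p = 0.0508), Scrt2 (0.0531) and Ctnnb1 (0.117) were lost.

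Within the members, levels moved with the Neurog2 count, a description without a test since Neurog2 chose the cells. The proneural list summed to 220.3 and 258 CPM in cells with 3 Neurog2 UMIs, 287 and 369.9 CPM with 4 or 5 and 573 and 559 CPM with 6 or more. Just outside the threshold, at 2 UMIs, it was 203 and 287 CPM. Gadd45g stood at 5.18 and 20.6 CPM at 3 UMIs and at 8.90 and 34.0 CPM at 2, and Insm1 at 15.6 and 23.7 and 32.0 and 25.1 CPM, so cells at either side of the threshold overlapped. At 6 or more UMIs, Gadd45g stood at 157 and 139.9 CPM. S phase genes summed to 3685 and 3904 CPM at 0 UMIs, 2577 and 2488 at 2, 2270.4 and 1437 at 3 and 1482 and 1972 CPM at 6 or more. G2 and M phase genes were highest at 3 UMIs in replicate 4 (11301 CPM) and at 2 UMIs in replicate 2 (8478 CPM).

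**Figure D4:**
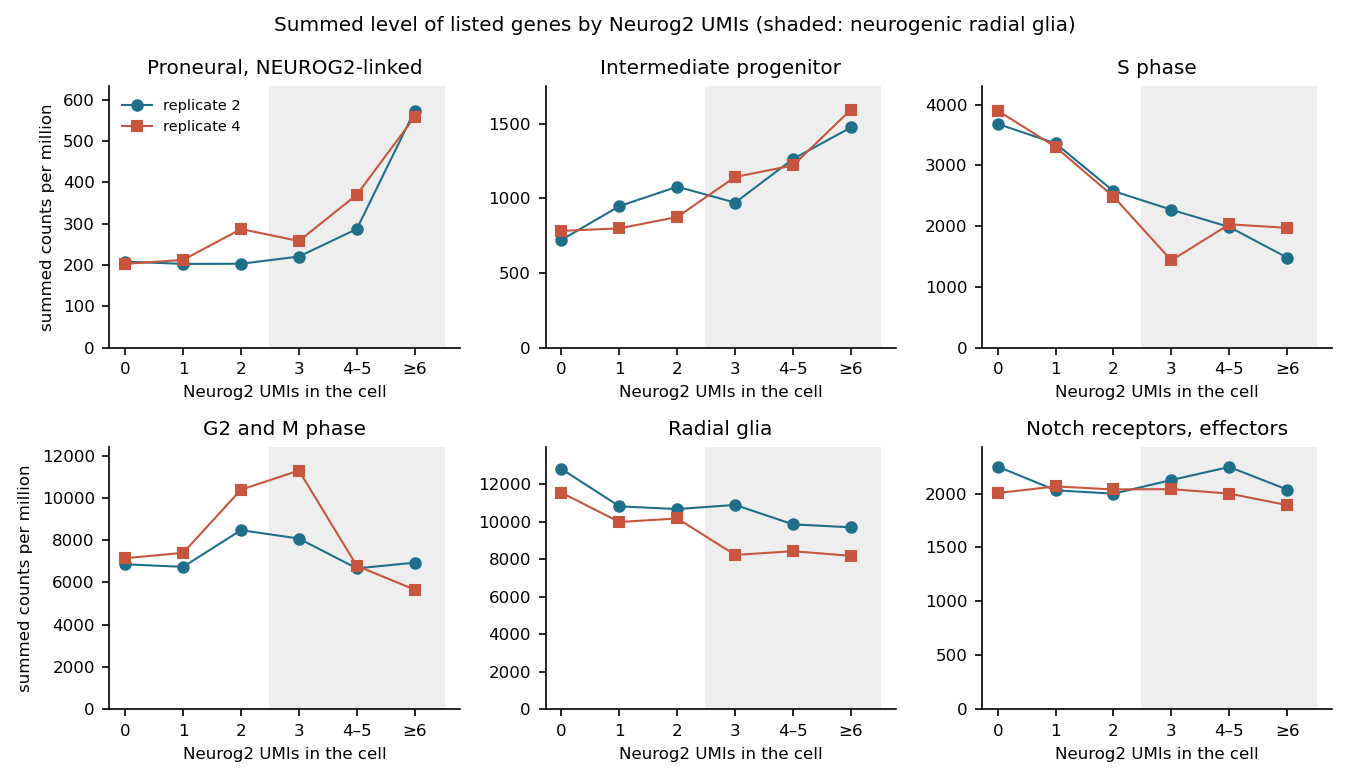
Summed level in CPM (vertical axes, from 0) of 6 gene lists in radial glia of the gate, by the number of Neurog2 UMIs in the cell (horizontal axes). Each point is the sum over the cells of 1 library, lines join the points of a library, and neurogenic radial glia are shaded. The proneural list lies highest at 6 or more UMIs in both libraries, and S phase genes lie highest at 0.

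Members also differed by cycling state. Those with at most 1 UMI of Mki67 plus Top2a (18 and 33 cells) held the proneural list at 652 and 582 CPM, and the others (33 and 41 cells) at 347 and 352 CPM. Gadd45g stood at 150.1 and 158 CPM in the former and 76.5 and 56.2 CPM in the latter, and intermediate progenitor genes at 1815 and 1801 and 1128 and 1172 CPM. Members with 1 or 2 Eomes UMIs (7 and 15 cells) held Insm1 at 212 and 147 CPM, against 44.1 and 38.2 CPM in those with none.

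Markers of other cells were low in the members. The 10 GABAergic neuron markers summed to 75.8 and 73.4 CPM, against 3995 and 3902 CPM in cells with at least 10 UMIs of Dlx1 plus Dlx2. Cajal-Retzius markers summed to 17.5 and 11.0 CPM, with Trp73, Lhx1, Lhx5 and Calb2 at 0, and hem and choroid plexus markers to 37.9 and 53.7 CPM. The summed level of the 9 ventral progenitor factors went the other way against negative cells. The 9 summed to 67.34 and 49.99 CPM in the members of replicates 2 and 4 and to 9.33 and 29.89 CPM in negative cells. Eomes-positive progenitors held 68.3 and 73.0 CPM, so the level was not particular to the members. Of the 9 factors, 6 and 4 had no UMI in the members, and 5 and 0 in negative cells. Only 1 of the 9 could be tested, and edgeR called it higher in the members (log2 fold change 3.09). Among the others, Gsx1, Gsx2, Nkx2-1 and Sp9 had no UMI in the members of either library. Vascular and meningeal markers summed to 17.0 and 13.3 CPM, microglia markers to 10.2 and 11.0 CPM, oligodendrocyte lineage markers to 1.70 and 3.21 CPM and erythroid markers to 83.2 and 202 CPM. Negative cells held erythroid markers at 65.9 and 223 CPM. Outside the ventral factors, none of the 18 tested genes of these lists was called between the 2 classes by edgeR or DESeq2. DESeq2 gave no adjusted p for many of them and so could not call these. They were 3 of 4 Cajal-Retzius, 3 of 4 hem and choroid plexus, 2 of 6 erythroid and 1 of 2 GABAergic genes. The 1 vascular and the 1 microglia gene had none either. Of the 18, 2 had an unadjusted edgeR p under 0.05. The part of such RNA in the results was not tested.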

How the data were processed

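Droplet single-cell RNA sequencing of 2 libraries of WT E14.5 dorsal telencephalon was analysed. The authors deposited UMI counts per gene and cell barcode, made with Cell Ranger 7.0.0 and mm10 per the labels. Barcodes numbered 1712 and 2589, with 40267872 and 49422007 UMIs, in replicates 2 and 4. Cells were filtered on genes and mitochondrial share, and classes were cut by UMI gates. UMI counts were summed per library and class, giving 8 sums, scaled to CPM and fitted in edgeR 4.0.16 (TMM, filterByExpr, quasi-likelihood test, Benjamini-Hochberg adjusted p under 0.05). DESeq2 1.42.0 was an alternative, as were other filters, gates and a replicate block. Against negative cells, DESeq2 gave no adjusted p for some listed genes, which it therefore could not call. Among them were 5 of 23 receptors, 3 of 18 excitatory neuron, 3 of 15 junction and 2 of 16 Notch genes. The list of G2 and M phase and that of G1 regulators each held 1 such gene. Classes of the same library share its number, since they were cut from 1 cell suspension, and the deviations of their sums correlated at 0.0987 to 0.296 over pairs of classes. Scrublet calls were kept in the main analysis and left out in an alternative. Code was tested on simulated data of 11067 genes for the comparison with negative cells and of 11070 genes for the other. For the former, 74% of 100 genes changed by 1 log2 unit and 100% of those changed by 2 were recovered. For the latter, the shares were 50% and 95%. Only genes of at least 10 CPM were changed, and all counts were drawn with 1 common spread and no library effect. The shares thus do not cover genes of lower level. Any gene of the 20 lists could be named, and per comparison and direction the 12 called genes with the largest change, the same sign in both libraries, at least 20 CPM in the higher class and a named symbol, and up to 10 genes called higher in both. Some genes of the lists are not reported here. Members and lists were chosen with earlier results of these data known. Promoter sequences are from RefSeq on GRCm38.p6.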

Additional observations from a re-analysis of the deposited data

How the results depend on the processing

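With 2 libraries, small differences were not detectable, and leaving out 1 library leaves values without a test. The mean share of members was 5.18% at Neurog2 of at least 2, 2.39% at Neurog2 of at least 5, 3.31% at Eomes 0 and 1.39% after thinning, and ranged from 3.75 to 4.21% without 1 replicate. Against negative cells, 154 called genes became 259 with the library as a replicate block (paired classes), 839 without the filter on low counts, 280 from the compared classes alone and 1 in low Mki67 and Top2a cells, which are fewer cells. Neurog2 of at least 5 gave 75 higher and 127 lower, and the other settings gave 112 to 168 calls. Against Eomes-positive progenitors, 966 became 1798 without that filter, 191 (62 higher, 129 lower) in low Mki67 and Top2a cells, and 668 to 1148 otherwise.

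Of 2169 values of named genes under other settings, 1951 kept direction and side of the threshold, 192 lost the call, 10 gained one and 16 turned. Against negative cells, low Mki67 and Top2a cells gave log2 fold changes of -0.51 for Mybpc1, 0.49 for Fry, -0.043 for Mycn, -0.15 for Hes5, -0.10 for Vim, 0.43 for Epha4 and 0.12 for Nlgn1. Of these, only Epha4 (SE 0.22) lay further from 0 than its SE. Eomes 0 gave -0.040 for Hes5, 0.023 for Mki67 and 0.0083 for Epha4, at least 15000 UMIs gave 0.018 for Mki67, and Neurog2 of at least 5 gave 0.023 for Epha4 and 0.15 for Nlgn1. Against Eomes-positive progenitors, low Mki67 and Top2a cells gave -3.40 for Kif23 and 0.67 for Pcna, and Eomes 0 gave -0.0036 for Vim. The cause was not tested. Of 402 values without 1 replicate, 65 moved by more than the spread between the libraries and 337 did not. No turn in direction was counted, but genes not called in the main fit could turn without being counted. Epha4, which was not called against negative cells, lay above them in the members of 1 library and below them in the other.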
